A study of Mus musculus with 38 samples.

Results

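The livers of tet-YAP mice were set directly against those of tet-Myc mice after 2 days of induction, to ask how early expression under YAP differs from early expression under Myc. All 6 R26-rtTA;tet-YAP libraries and all 4 R26-rtTA;tet-Myc libraries were used, 10 of the 38 liver libraries of the series. Every one of these mice carries R26-rtTA, in which the doxycycline-dependent activator rtTA is made from the widely expressed Rosa26 locus, so that induction need not be limited to hepatocytes. Per the study's methods, the tet-YAP transgene encodes a YAP mutant described as activated, and both transgenes were switched on with doxycycline in the food. The 4 R26-rtTA;WT libraries, whose labels give no induction time, served as a side value, and the 3 R26-rtTA;tet-Myc;tet-YAP libraries entered the fit for the estimate of spread and counted in the filter that decided which genes were tested. Further values came from LAP-tTA livers after 4 weeks, with 4 tet-YAP and 3 tet-Myc libraries. In these a different activator, tTA, is made under the liver-restricted LAP promoter. The labels give neither age nor sex, and they do not say that each library is a separate animal, so p-values measure the spread between these libraries.

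YAP has no DNA-binding domain of its own and acts through the TEAD transcription factors. The Hippo kinases hold it in the cytoplasm, and some genes it switches on encode restraints of the same pathway. Myc binds E-boxes together with its partner Max and is best known for raising genes of ribosome production, nucleotide synthesis and growth. In liver, YAP is known for driving organ size and biliary traits, and Myc for growth and for liver tumours.

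Expression is given in RPKM, read counts scaled by gene length and by library depth. Differences are log2(RPKM + 0.5) of tet-YAP minus tet-Myc from limma, with the standard error (SE), so that a log2 difference of 1 is a change of 2-fold on that scale and low genes are understated. A gene was called where the Benjamini-Hochberg adjusted p was below 0.05 and the difference was 0.5 or more in either direction. Of 11263 genes tested, 1233 were called, which is 10.9%. Of these, 448 (3.98%) were higher and 785 (6.97%) lower in tet-YAP than in tet-Myc livers. The median over all genes was -0.10, and the split between the directions depended on how libraries were scaled, with 642 higher and 455 lower genes after median ratio scaling. In 2281 genes (20.3%) no tet-YAP library overlapped any tet-Myc library, and 903 of the called genes were of this kind.

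3 features of the libraries bear on what follows. Tet-Myc libraries 2 and 3 had Xist at 15.02 and 17.36 RPKM with almost no Y-linked RNA, a female pattern, whereas all 6 tet-YAP, the other 2 tet-Myc and all 4 WT libraries had a male pattern. Tet-YAP libraries 1 and 4, 2 and 5, and 3 and 6 were closer to each other than the other tet-YAP pairs, with a variance of 1.72 to 1.94 times that of read counting against 2.51 to 4.28 times. WT libraries 2 and 3 (1.335 times) and 1 and 4 (2.387 times) formed such pairs too, and no tet-Myc libraries did. The sources used here do not say whether close pairs are repeat libraries of one liver. If they are, n is 3 in tet-YAP and 2 in WT in place of 6 and 4, and the SD, SE and p-values given with the larger n are too small. Averaging each such pair left 3 tet-YAP and 2 WT values and 835 called genes, 830 of them among the 1233. With the sex pattern as a covariate 1223 genes were called, 868 of them shared, and in male-pattern libraries alone 1627, of which 974 were shared. The hepatocyte genes Alb, Apoa1, Apob and Hnf4a were among the abundant genes of both groups, which fits the label liver. Values flattened at the top, since the sixth-highest gene of a library lay at 46.5 to 61.6 RPKM in tet-YAP and 47.2 to 52.5 RPKM in tet-Myc livers, so that differences of very abundant genes can be understated.

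The induced genes themselves were compared first. Myc was at 1.42 to 2.27 RPKM in tet-YAP livers (median 1.83), and at 1.98, 2.68, 3.50 and 0.609 RPKM in tet-Myc livers. The tet-Myc libraries thus lay on both sides of the tet-YAP libraries, and library 4, labelled tet-Myc, was within the WT range of 0.522 to 0.767 RPKM. No call was made for Myc (log2 difference -0.08 ± 0.24 SE, adjusted p = 0.81), and in male-pattern libraries alone its difference was 0.47 (adjusted p = 0.12). Against WT, the difference was 0.98 (adjusted p = 0.011) in tet-YAP and 1.07 (adjusted p = 0.018) in tet-Myc livers. The sources used here do not say how much of either transgene's transcript is counted at the mouse gene, so these levels need not measure the transgenes.

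Yap1 was at 4.84 to 5.85 RPKM in tet-YAP livers (median 5.47), and at 4.43, 3.74, 3.19 and 3.33 RPKM in tet-Myc livers, with no overlap. It was higher in tet-YAP livers by 0.52 ± 0.08 on the log2 scale (adjusted p = 0.00019). WT livers had 5.06 ± 0.19 RPKM (SD, n = 4). Against WT, the difference of Yap1 was 0.10 (adjusted p = 0.37) in tet-YAP and -0.42 (adjusted p = 0.0051) in tet-Myc livers, both under 0.5 in size. The head-to-head call ended with the sex covariate (0.47), in male-pattern libraries (0.45) and without tet-Myc library 3 (0.47) or 4 (0.48), where the difference was under 0.5.

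Genes that YAP and TEAD are known to switch on had the largest share of higher calls among the lists. Of 26 listed targets 20 were tested, and 11 were higher and none lower in tet-YAP livers, against 3.98% higher over all genes. The list's median difference was 0.62, against -0.10 over all genes. The 6 targets left out, among them Ankrd1, did not reach 1 RPKM in 3 libraries.

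Cyr61, a secreted matrix protein, was at 14.0 to 16.4 RPKM in tet-YAP livers (median 14.98), against 5.58, 4.75, 5.29 and 5.53 RPKM in tet-Myc and 5.77 ± 0.89 RPKM in WT livers (SD, n = 4). Every tet-YAP library was above every tet-Myc and WT library, and the difference was 1.42 ± 0.16 (adjusted p = 1.89e-05). Ajuba, a LIM protein that binds the Hippo kinase Lats, was at 14.1 to 15.4 RPKM in tet-YAP livers (median 14.9), against 3.97, 3.10, 2.57 and 1.79 RPKM in tet-Myc livers. The 6 tet-YAP values were close together and the groups lay far apart (2.22 ± 0.17, adjusted p = 5.54e-07). Crim1, a membrane protein that binds growth factors of the BMP family, was at 3.96 to 6.63 RPKM in tet-YAP livers (median 5.68), against 2.57, 2.05, 2.11 and 2.12 RPKM in tet-Myc livers. Again no library overlapped (1.14 ± 0.14, adjusted p = 6.75e-05).

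Lats2, a kinase that phosphorylates and restrains YAP, was at 5.22 to 6.42 RPKM in tet-YAP livers (median 5.94), against 3.26, 2.67, 3.88 and 3.74 RPKM in tet-Myc livers. It was higher by 0.73 ± 0.11 (adjusted p = 0.00019). Tead1, a DNA-binding partner of YAP, was at 1.203 to 1.75 RPKM in tet-YAP livers (median 1.52), against 0.671, 0.760, 0.655 and 0.358 RPKM in tet-Myc livers. Its difference was 0.85 ± 0.16 (adjusted p = 0.0013). Ctgf, another secreted matrix protein, varied most, from 5.78 to 13.7 RPKM in tet-YAP livers (median 10.7), against 3.32, 1.09, 3.66 and 2.82 RPKM in tet-Myc livers. The groups did not overlap (1.72 ± 0.45, adjusted p = 0.0093), but the call for Ctgf ended with close pairs averaged (adjusted p = 0.074), with the sex covariate (1.01, adjusted p = 0.080) and with libraries blocked by their number (adjusted p = 0.064).

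The other called targets were the stress protein Gadd45b (1.81), the angiomotin genes Amot (0.87) and Amotl2 (0.86), whose proteins bind YAP, Asap1 (0.70) and Nuak2 (0.55). Nt5e had -0.92 (adjusted p = 0.20) and Axl 0.29 (adjusted p = 0.046), neither of them called. Set against WT separately, 9 of the 20 targets were called higher in tet-YAP and 0 in tet-Myc livers, with list medians of 0.39 and -0.03. These comparisons share the WT libraries, and over all genes 6.19% were called in tet-YAP (2.0% higher and 4.19% lower) and 4.87% in tet-Myc livers (2.17% higher and 2.7% lower). The count of 11 was 10 to 11 with any one library left out, 9 with close pairs averaged, 12 in male-pattern libraries and 6 with close pairs averaged and the sex covariate together. A target was called lower in male-pattern libraries and without tet-Myc library 1, 1 in each.

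**Figure D1:**
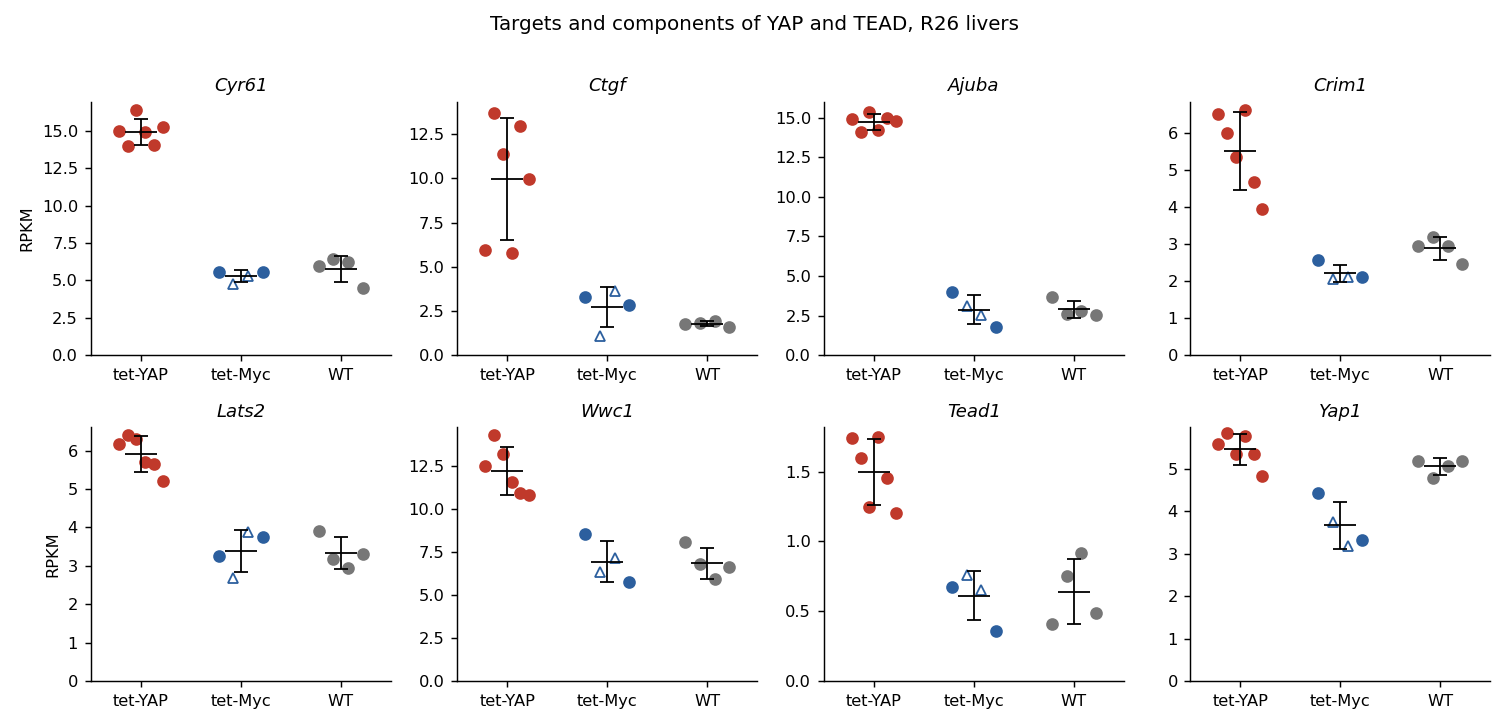
RPKM of 8 genes in each R26 library, with tet-YAP (6 points), tet-Myc (4 points) and WT (4 points) from left to right in each panel; open triangles are the female-pattern libraries, and the black bar and whiskers are the mean and SD. The tet-YAP points of Cyr61, Ctgf, Ajuba, Crim1, Lats2, Wwc1 and Tead1 all sit above the tet-Myc points, and the Yap1 points of WT lie with those of tet-YAP.

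The promoters of these targets were searched for the core of the TEAD site, GGAATG or its reverse complement CATTCC, in the 250 bases before each RefSeq start (build GRCm38.p6, plus and minus strand). The deposited values were made on another build, mm9, so the coordinates belong to the promoter windows alone. Of the 11 called targets 7 had a promoter entry and 4 of these held the letters, as did 2 of 7 uncalled targets with an entry, while 12.6% of all 32851 windows held them. The 4 are shown because they are the called targets whose windows hold the motif, with the motif in capitals and the strand of the gene 5′ to 3′.
Cyr61: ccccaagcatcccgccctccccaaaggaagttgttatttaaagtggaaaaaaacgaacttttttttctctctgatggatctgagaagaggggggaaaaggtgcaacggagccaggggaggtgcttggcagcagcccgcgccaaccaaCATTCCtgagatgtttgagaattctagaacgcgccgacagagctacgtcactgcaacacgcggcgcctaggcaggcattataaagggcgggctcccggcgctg
Ajuba: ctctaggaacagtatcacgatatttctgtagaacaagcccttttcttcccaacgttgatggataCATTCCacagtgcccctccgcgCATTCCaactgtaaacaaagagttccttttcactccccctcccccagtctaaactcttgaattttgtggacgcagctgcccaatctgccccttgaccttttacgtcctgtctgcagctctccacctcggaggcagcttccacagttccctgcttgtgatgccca
Crim1: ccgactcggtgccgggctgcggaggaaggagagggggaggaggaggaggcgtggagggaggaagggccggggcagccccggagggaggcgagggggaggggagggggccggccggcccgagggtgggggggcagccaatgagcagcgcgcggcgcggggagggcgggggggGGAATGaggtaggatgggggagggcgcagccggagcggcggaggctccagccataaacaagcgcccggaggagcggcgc
Amotl2: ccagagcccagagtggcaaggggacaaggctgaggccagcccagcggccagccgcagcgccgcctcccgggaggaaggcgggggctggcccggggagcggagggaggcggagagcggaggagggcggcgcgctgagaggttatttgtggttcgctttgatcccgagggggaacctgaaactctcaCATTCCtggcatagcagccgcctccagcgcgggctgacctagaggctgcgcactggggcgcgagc
The window of Cyr61 (RefSeq Ccn1) is chr3:145649986-145650235, minus strand, that of Ajuba chr14:54577662-54577911, minus strand, that of Crim1 chr17:78199998-78200247, plus strand, and that of Amotl2 chr9:102717554-102717803, plus strand. The motif begins 103 bases before the start in Cyr61, 79 in Crim1 and 65 in Amotl2. Ajuba has 2 copies, which begin 186 and 164 bases before the start. The E-box CACGTG, the letters that Myc and Max bind, was in 3 of the 7 called and 0 of the 7 uncalled windows, against 6.02% of all windows. A match describes letters only.

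Of 19 tested core genes of the Hippo pathway 3 were higher and none lower, against 3.98% higher over all genes (median 0.08, against -0.10 over all genes). Wwc1, the scaffold protein KIBRA that activates the Hippo kinases, was at 10.8 to 14.3 RPKM in tet-YAP livers (median 12.01), against 8.54, 6.34, 7.12 and 5.73 RPKM in tet-Myc livers. All tet-YAP libraries were above all tet-Myc libraries (0.78 ± 0.11, adjusted p = 0.00012). Its relative Wwc2 differed by 0.69 ± 0.10 (adjusted p = 0.00014), also without overlap, and the third was Yap1. The kinases Lats1 (-0.11) and Stk4 (-0.05) and the adaptor Sav1 (0.08) were not called.

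**Figure D2:**
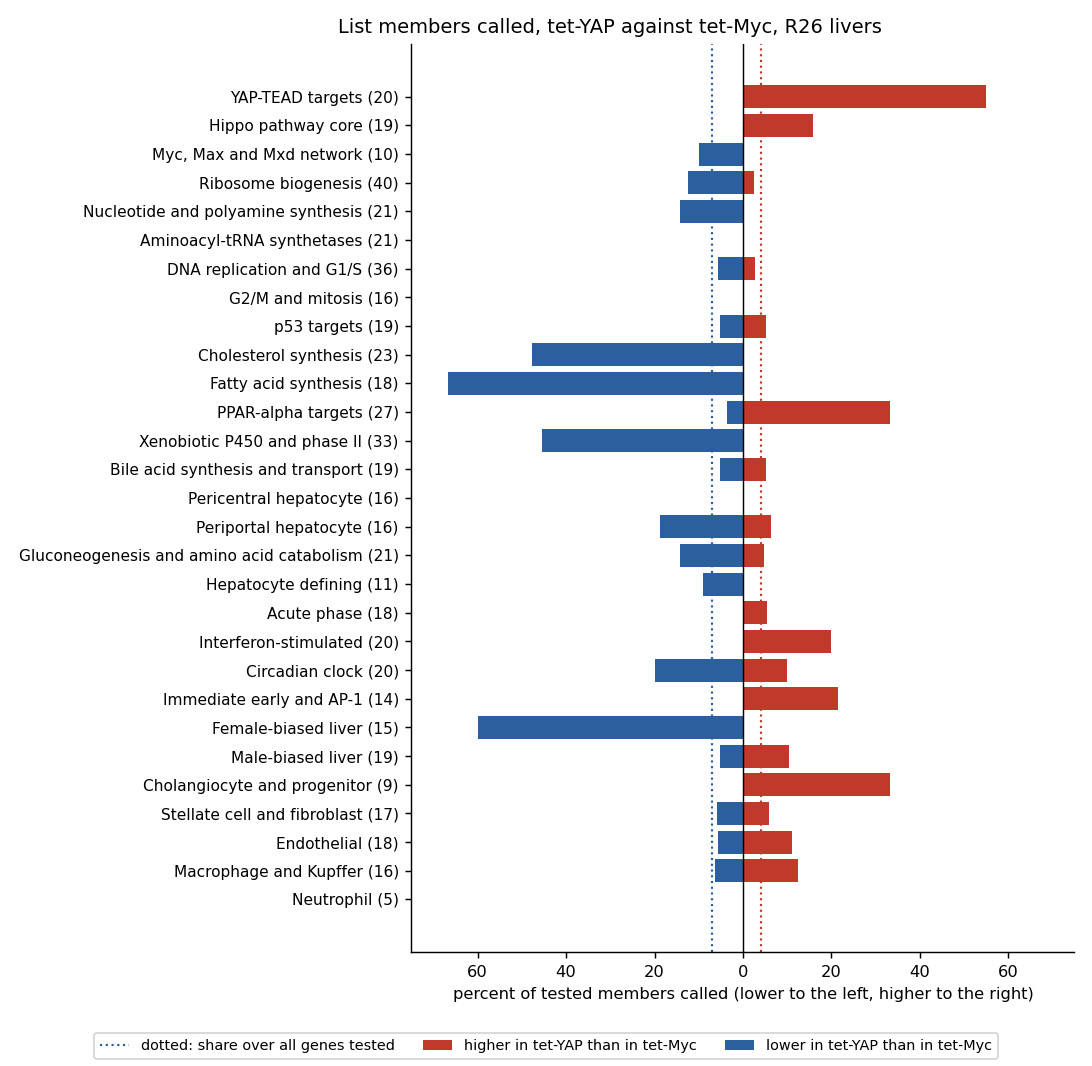
Percent of the tested members of each list that were called lower (left, blue) or higher (right, red) in tet-YAP than in tet-Myc livers, with the number tested in brackets; dotted lines are the shares over all genes, 6.97% lower and 3.98% higher. Targets of YAP and TEAD (11 of 20) reach furthest to the right, and fatty acid synthesis (12 of 18) and female-biased genes (9 of 15) furthest to the left.

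Genes that Myc is known to raise were mostly lower in tet-YAP livers by small amounts, and few were called. Of 40 ribosome biogenesis genes, which build the ribosome in the nucleolus, 5 were lower and 1 higher (median -0.30, with 37 of 40 negative in sign), against 6.97% lower over all genes. Signs leaned the same way in general, with 7229 of all 11263 genes negative and a median of -0.10. Nop2, an RNA methyltransferase of the large subunit, was at 5.72 to 7.98 RPKM in tet-YAP livers (median 6.41), against 19.01, 7.04, 10.3 and 10.1 RPKM in tet-Myc livers. Rrn3, which recruits RNA polymerase I, was at 5.07 to 6.12 RPKM in tet-YAP livers (median 5.95), against 10.6, 6.67, 8.59 and 8.93 RPKM in tet-Myc livers. Tet-Myc library 1 was the highest in both, and the groups overlapped in Nop2 alone. The differences were -0.71 ± 0.19 (adjusted p = 0.0088) for Nop2 and -0.53 ± 0.10 (adjusted p = 0.00081) for Rrn3. Nip7, also of the large subunit, differed by -0.52 ± 0.11 (adjusted p = 0.0028), and Dkc1 by -0.55 and Nop56 by -0.52. Rrs1, which acts in 60S assembly, went the other way (0.71 ± 0.19, adjusted p = 0.011), with tet-Myc library 1 at 8.03 RPKM inside the tet-YAP range of 6.47 to 8.23 and the other tet-Myc libraries at 2.67, 4.15 and 4.02 RPKM.

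The ribosome biogenesis result rested on that library. The mean log2 level of the 40 genes relative to WT was 0.89 in tet-Myc library 1 and -0.02, 0.08 and 0.03 in libraries 2 to 4, and -0.15 to 0.17 in tet-YAP livers. Without tet-Myc library 1, none was lower, 2 were higher and the median was -0.09. In male-pattern libraries, which are tet-Myc libraries 1 and 4 on the tet-Myc side, 14 were lower and none higher (median -0.52). With the sex covariate 10 were lower. Under median ratio scaling and under quantile normalization 1 was lower (median -0.20 in each), with Nip7 and Rrn3 not called, and 2 were lower with close pairs averaged or with pseudocount 1.

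Synthesis of nucleotides and polyamines showed 3 of 21 genes lower and none higher (median -0.32), against 6.97% lower and a median of -0.10 over all genes. Umps, which makes UMP, was at 5.69 to 6.84 RPKM in tet-YAP livers (median 6.18), against 12.6, 10.3, 10.8 and 10.8 RPKM in tet-Myc livers. Every tet-YAP library was below every tet-Myc library, and the difference was -0.79 ± 0.11 (adjusted p = 0.00017). Sms, spermine synthase, had 0.766 to 1.28 RPKM in tet-YAP livers (median 0.943), against 1.59, 2.12, 1.79 and 1.54 RPKM in tet-Myc livers. It differed by -0.64 ± 0.11 (adjusted p = 0.00053). Both kept their call in every alternative in which they were tested. Ppat, the first enzyme of purine synthesis, was called at -0.52 ± 0.19 (adjusted p = 0.049), with overlap between the groups. The call for Ppat ended in 17 of 22 alternatives. Odc1, a classical Myc target that makes putrescine, had 0.43 (adjusted p = 0.0060), under the threshold of size. Without tet-Myc library 1, 2 genes of the list were lower and 1 higher, 5 were lower without library 2, and 10 were lower in male-pattern libraries.

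The Myc, Max and Mxd network gave 1 call among 10 genes, lower, against 6.97% lower over all genes. With one library left out 1 to 3 were lower and at most 1 higher, the 3 without tet-YAP library 3, and in male-pattern libraries 3 were lower. The call was Mlxipl, the sugar-responsive factor ChREBP, lower by 0.69 and described with the lipid genes. Max (-0.50, adjusted p = 0.0021) and Mlx (-0.48, adjusted p = 0.0033), partners in the same network, lay just under the threshold of size. None of 21 aminoacyl-tRNA synthetases was called (median -0.22). Nars, which charges tRNA with asparagine, was at 14.7 to 19.5 RPKM in tet-YAP livers, against 21.9, 17.2, 16.3 and 16.6 RPKM in tet-Myc livers (-0.08 ± 0.09, adjusted p = 0.51). Tars, for threonine, had a difference of -0.14 ± 0.11 (adjusted p = 0.36).

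Cell cycle genes were low in both groups. Among 36 genes of DNA replication and G1/S 1 was higher and 2 lower (median -0.19), near the shares over all genes, 3.98% higher and 6.97% lower. The same counts were found among the 24 that reached the filter in tet-YAP and tet-Myc libraries alone. Fen1, which trims Okazaki fragments, was at 1.78 to 2.38 RPKM in tet-YAP livers (median 2.12), against 4.999, 3.85, 2.04 and 3.22 RPKM in tet-Myc livers. The groups overlapped in Fen1, with a difference of -0.57 ± 0.16 (adjusted p = 0.012). Cdt1, a licensing factor of replication origins, was called higher (0.56 ± 0.15, adjusted p = 0.012) although tet-Myc library 1, at 1.55 RPKM, was above every tet-YAP library. The calls for Fen1 and Cdt1 ended in several alternatives, among them pseudocount 1, and that for Cdt1 also with the sex covariate. None of 16 genes of G2/M and mitosis was called (median 0.20, and -0.08 with the sex covariate). Only 2 of the 16 reached the filter in tet-YAP and tet-Myc libraries alone and the rest were tested through other groups, so the median rests mostly on genes near the floor in both groups. In male-pattern libraries 8 were tested and 1 was higher. Aurka, a mitotic kinase, had 0.969 to 1.75 RPKM in tet-YAP livers, against 1.002, 1.002, 0.900 and 0.426 RPKM in tet-Myc livers (0.46 ± 0.27, adjusted p = 0.20), and Ube2c, which marks mitotic proteins for decay, differed by 0.32 ± 0.22 (adjusted p = 0.26). Of 19 p53 targets 1 was lower, Ccng1 (-0.58 ± 0.10, adjusted p = 0.00045), and 1 higher, Btg2 (0.87 ± 0.27, adjusted p = 0.023). These counts too were near the shares over all genes. The Ccng1 call ended under both scaling alternatives (-0.47 with median ratio scaling), and that for Btg2 with close pairs averaged and without tet-Myc library 2 or 4 or tet-YAP library 6.

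Fatty acid synthesis was lower in tet-YAP livers across most of its steps. Of 18 genes 12 were lower and none higher (median -0.93), against 6.97% lower over all genes. Me1, malic enzyme, which supplies NADPH, was at 5.01 to 6.64 RPKM in tet-YAP livers (median 5.68), against 9.36, 20.4, 12.7 and 20.2 RPKM in tet-Myc livers. Pklr, the liver pyruvate kinase, was at 9.08 to 15.6 RPKM in tet-YAP livers (median 11.2), against 20, 30.2, 24.3 and 35.5 RPKM in tet-Myc livers. Acaca, which makes malonyl-CoA, was at 4.32 to 6.45 RPKM in tet-YAP livers (median 5.42), against 7.76, 12.4, 9.54 and 12.7 RPKM in tet-Myc livers. None of these overlapped, and tet-Myc library 1 was the lowest tet-Myc library in each. The differences were -1.30 ± 0.18 (adjusted p = 0.00012) for Me1, -1.16 ± 0.18 (adjusted p = 0.0003) for Pklr and -0.89 ± 0.17 (adjusted p = 0.0012) for Acaca.

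The transcription factors Mlxipl and Srebf1, known for acting on such genes, were called lower. Mlxipl is itself a list member and 1 of its 12 lower calls, so it is no separate evidence. Whether either factor accounts for the other differences was not tested. Mlxipl was at 10.7 to 12.03 RPKM in tet-YAP livers (median 11.3), against 15.6, 17.8, 19.96 and 22.1 RPKM in tet-Myc and 18.9 ± 1.1 RPKM in WT livers (SD, n = 4). Srebf1, the sterol-responsive factor SREBP1, was at 9.19 to 13.9 RPKM in tet-YAP livers (median 10.6), against 21.1, 30.3, 29.7 and 39.9 RPKM in tet-Myc and 22.4 ± 2.3 RPKM in WT livers. For Mlxipl tet-YAP was the group that departed from WT, with log2 differences from WT of -0.70 in tet-YAP and -0.01 in tet-Myc livers. For Srebf1 they were -1.02 in tet-YAP and 0.40 in tet-Myc livers, so the groups lay on opposite sides of WT. Head to head, Mlxipl differed by -0.69 ± 0.10 (adjusted p = 0.00019) and Srebf1 by -1.42 ± 0.29 (adjusted p = 0.0022).

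Thrsp, a lipogenic protein also called Spot 14, had the largest difference of the list, at 7.96 to 12.8 RPKM in tet-YAP livers (median 9.68), against 37.9, 40.3, 51.0 and 54.2 RPKM in tet-Myc livers (-2.16 ± 0.44, adjusted p = 0.0020). Fasn, fatty acid synthase, was at 10.8 to 16.7 RPKM in tet-YAP livers (median 13.6), against 28.5, 35.8, 29.9 and 41.9 RPKM in tet-Myc livers. Acly, which makes cytosolic acetyl-CoA, was at 10.6 to 13.2 RPKM in tet-YAP livers (median 12.01), against 16.1, 23.4, 20.7 and 27.1 RPKM in tet-Myc livers. Neither gene overlapped between the groups (Fasn -1.30 ± 0.29, adjusted p = 0.0033, and Acly -0.83 ± 0.18, adjusted p = 0.0027). Scd1 (-0.41), which makes monounsaturated fatty acids, and Gpam (-0.02), of triglyceride synthesis, were not called. The list's count was 11 to 12 with any one library left out and 11 with the sex covariate, where the median was -0.59 in place of -0.93. It was 9 with close pairs averaged and 3 when that was joined with the sex covariate. Against WT, 9 of the 18 were called lower in tet-YAP and 0 in tet-Myc livers, where 4.19% and 2.7% of all genes were lower.

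Cholesterol synthesis and uptake followed with 11 of 23 genes lower and none higher (median -0.53), against 6.97% lower over all genes. Dhcr7, which makes cholesterol from its direct precursor, was at 4.40 to 6.92 RPKM in tet-YAP livers (median 5.76), against 13.2, 11.8, 13.8 and 11.1 RPKM in tet-Myc livers. Pmvk, of the mevalonate pathway, was at 5.56 to 7.24 RPKM in tet-YAP livers (median 6.55), against 10.9, 15.6, 13.7 and 12.5 RPKM in tet-Myc livers. In both genes the groups stood apart, by -1.09 ± 0.20 (adjusted p = 0.00081) for Dhcr7 and -0.96 ± 0.17 (adjusted p = 0.0006) for Pmvk. Fdft1, squalene synthase, differed by -0.58 ± 0.14 (adjusted p = 0.0062), a call lost under both scaling alternatives and with the sex covariate. Srebf2, the factor of the pathway, had a difference of -0.00 without a call. Against WT, 14 of the 23 were called lower in tet-YAP and 0 in tet-Myc livers, where 4.19% and 2.7% of all genes were lower. The head-to-head count of 11 was 7 without tet-Myc library 3, 6 after quantile normalization, 4 with close pairs averaged, 3 with the sex covariate (median -0.30) and 12 in male-pattern libraries.

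**Figure D3:**
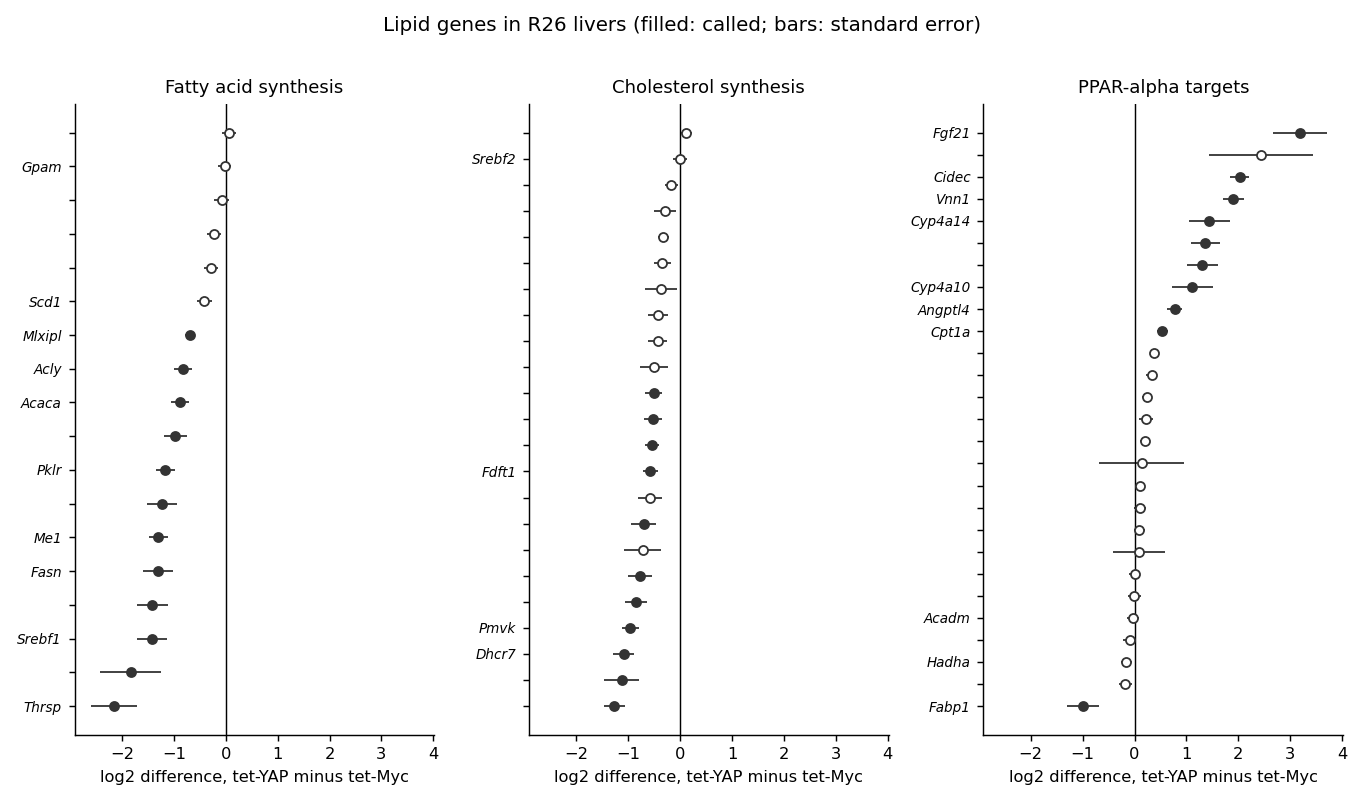
Log2 difference of tet-YAP minus tet-Myc for each tested gene of fatty acid synthesis (18), cholesterol synthesis (23) and PPAR-alpha targets (27); bars are the standard error and filled points were called, with names for the genes given in the text. The filled points of both synthesis lists lie left of 0, and those of the PPAR-alpha list right of it except Fabp1.

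Targets of PPAR-alpha, the receptor that turns on fatty acid use in fasting, went the other way in part. Of 27 genes 9 were higher and 1 lower (median 0.21), against 3.98% higher and 6.97% lower over all genes. Fgf21, a hormone that the liver secretes in fasting, was at 5.11 to 13.3 RPKM in tet-YAP livers (median 11.7), against 0.591, 1.83, 0.359 and 0.200 RPKM in tet-Myc and 1.27 ± 0.34 RPKM in WT livers (SD, n = 4). Cidec, a protein of lipid droplets, was at 6.65 to 12.5 RPKM in tet-YAP livers (median 11.03), against 2.34, 1.42, 2.09 and 2.31 RPKM in tet-Myc livers. Vnn1, the pantetheinase vanin 1, was at 9.31 to 18.4 RPKM in tet-YAP livers (median 15.5), against 2.99, 3.23, 5.99 and 2.22 RPKM in tet-Myc livers. These 3 are among the 10 highest differences of called, non-overlapping genes, at 3.19 ± 0.52 (adjusted p = 0.00042) for Fgf21, 2.03 ± 0.19 (adjusted p = 2.46e-06) for Cidec and 1.91 ± 0.21 (adjusted p = 1.62e-05) for Vnn1.

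Angptl4, which inhibits lipoprotein lipase, was at 28.3 to 37.6 RPKM in tet-YAP livers (median 34.6), against 20.8, 12.8, 25.8 and 20.7 RPKM in tet-Myc livers (0.77 ± 0.15, adjusted p = 0.0012). Cpt1a, which admits fatty acids to mitochondria, differed by 0.53 ± 0.10 (adjusted p = 0.0015), a call that ended without tet-Myc library 2 or tet-YAP library 4 and with the sex covariate. Cyp4a14, a fatty acid hydroxylase, was at 32.0 to 44.1 RPKM in tet-YAP livers (median 36.8), against 4.40, 21.7, 29.4 and 10.9 RPKM in tet-Myc and 4.89 ± 2.902 RPKM in WT livers. Its tet-Myc libraries spread widely and all lay below tet-YAP (1.44 ± 0.40, adjusted p = 0.012), and both transgenic groups were called higher than WT (2.98 in tet-YAP and 1.54 in tet-Myc livers). With close pairs averaged the call for Cyp4a14 ended, and in male-pattern libraries its difference was 2.33. Cyp4a10, a close relative, was called at 1.12 (adjusted p = 0.038) with overlapping groups, and lost its call without tet-YAP library 1, 2, 4 or 5 or tet-Myc library 1 or 4. Members that carry out the oxidation itself stayed near 0, with Acadm at -0.03 and Hadha at -0.16, and the exception in direction was Fabp1 (-0.99), the fatty acid binding protein of liver. The count of 9 was 7 to 9 with any one library left out and 6 with close pairs averaged.

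Others among the 10 highest differences belonged to various groups. Ly6d, a surface protein that the cholangiocyte and progenitor list holds, was at 8.85 to 14.1 RPKM in tet-YAP livers (median 11.5), against 0.810, 0.697, 0.268 and 0.365 RPKM in tet-Myc and 1.03 ± 0.50 RPKM in WT livers (SD, n = 4). It had the highest difference of the comparison (3.51 ± 0.20, adjusted p = 1.12e-08). Cyp4a31, a further fatty acid hydroxylase, was at 4.76 to 6.21 RPKM in tet-YAP livers (median 5.32), against 0.425, 0.609, 1.27 and 0.185 RPKM in tet-Myc livers (2.47 ± 0.32, adjusted p = 7.96e-05). Inhbb, a subunit of activin, was at 2.61 to 4.59 RPKM in tet-YAP livers (median 3.08), against 0.475, 0.546, 0.276 and 0.133 RPKM in tet-Myc livers (2.20 ± 0.18, adjusted p = 7.56e-07). Omd, a matrix proteoglycan, was at 3.87 to 9.19 RPKM in tet-YAP livers (median 6.34), against 1.49, 0.340, 0.371 and 3.42 RPKM in tet-Myc livers (2.08 ± 0.44, adjusted p = 0.0026). The female-pattern libraries 2 and 3 were the lowest for Omd, and its difference was 1.15 with the sex covariate and 1.23 in male-pattern libraries, still called. Ly6d, Cyp4a31, Inhbb and Omd each lay above all tet-Myc libraries in all tet-YAP libraries, which the rule for the 10 highest required. Among tet-YAP, tet-Myc and WT libraries, Inhbb reached 1 RPKM only in tet-YAP ones, so its p-value is no support for a difference. The P450 genes of one subfamily are close in sequence and may share reads, so single members are uncertain.

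The 10 lowest differences among called, non-overlapping genes mostly belonged to xenobiotic and steroid metabolism. Cyp2b9, Cyp3a44, Cyp3a16, Sult3a1, Sult2a1 and Hao2 did not reach the filter in tet-YAP and tet-Myc libraries alone. Their place among the 10 is a description, not support for a difference. Among 33 xenobiotic P450 and phase II genes 15 were lower and none higher (median -0.64), against 6.97% lower over all genes. Counting tet-YAP and tet-Myc libraries alone, 29 of the 33 reached the filter and 10 of these were lower (median -0.44). The rest were tested through other groups. Cyp2c39, a P450 of fatty acids and drugs, was at 0.268 to 0.961 RPKM in tet-YAP livers (median 0.703), against 7.27, 25.5, 29.3 and 11.7 RPKM in tet-Myc and 0.407 ± 0.147 RPKM in WT livers (SD, n = 4). Here it was tet-Myc that departed from WT, by 4.197 (adjusted p = 3.05e-06), while tet-YAP differed from WT by 0.36 (adjusted p = 0.46). Head to head, Cyp2c39 differed by -3.84 ± 0.34 (adjusted p = 1.66e-06) and by -3.08 in male-pattern libraries. Among tet-YAP, tet-Myc and WT libraries, only tet-Myc ones reached 1 RPKM for Cyp2c39. Its p-values are thus a description, not support for a difference. Cyp2b10, the usual read-out of the receptor CAR, was at 0.0209 to 0.134 RPKM in tet-YAP livers (median 0.0344), against 0.475, 8.39, 14.6 and 5.63 RPKM in tet-Myc livers (-3.25 ± 0.62, adjusted p = 0.0012). Its difference was -1.999 with the sex covariate, the call ended when that was joined with close pairs averaged (adjusted p = 0.052), and it was not tested in male-pattern libraries. For Cyp2b10 too, only tet-Myc libraries of these groups reached 1 RPKM, so its p-values are likewise no support. Gbp11, a guanylate-binding protein, was at 0.930 to 4.39 RPKM in tet-YAP livers (median 1.32), against 12.6, 12.9, 18.4 and 13.6 RPKM in tet-Myc livers (-2.61 ± 0.45, adjusted p = 0.00064). In all 3 genes no tet-YAP library reached the lowest tet-Myc library, which the rule for the 10 lowest required.

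The glutathione transferases Gstm3 and Gstm6 were lower in tet-YAP than in both other groups. Gstm3 was at 0.619 to 3.07 RPKM in tet-YAP livers (median 0.906), against 4.09, 8.15, 6.83 and 6.48 RPKM in tet-Myc and 11.2 ± 0.9 RPKM in WT livers (SD, n = 4). Gstm6 was at 10.01 to 12.8 RPKM in tet-YAP livers (median 11.9), against 15.1, 20.1, 20.4 and 22.7 RPKM in tet-Myc and 23.8 ± 0.7 RPKM in WT livers. Both stood apart from tet-Myc livers, by -1.97 ± 0.28 (adjusted p = 0.00017) for Gstm3 and -0.71 ± 0.12 (adjusted p = 0.0006) for Gstm6. Cyp2c55, a P450 that CAR also raises, was at 0.0399 to 0.234 RPKM in tet-YAP livers (median 0.114), against 0.891, 1.10, 1.27 and 3.80 RPKM in tet-Myc livers (-1.71 ± 0.24, adjusted p = 0.00017). The list count of 15 was 9 of 30 tested without tet-Myc library 3, 10 of 28 tested in male-pattern libraries, 8 with the sex covariate (median -0.32) and 7 with close pairs averaged. 5 of its members are also in the female-biased list.

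Female-biased genes moved with the female-pattern libraries. Of 15 such genes tested 9 were lower and none higher in tet-YAP livers (median -2.62), against 6.97% lower over all genes. Counting tet-YAP and tet-Myc libraries alone, 6 of the 15 reached the filter and 1 of these was lower (median -0.90). The filter thus favoured members that are high in female-pattern libraries, and the count and median of the 15 are a description, not support for a difference. A1bg, a plasma protein made in female liver, was at 0.0168 to 0.376 RPKM in tet-YAP livers (median 0.1001), against 1.96, 53.1, 53.1 and 1.81 RPKM in tet-Myc livers. Cyp2b9, a steroid hydroxylase, was at 0 RPKM in 4 and at 0.0178 and 0.0340 RPKM in the other 2 tet-YAP livers, against 0.182, 31.9, 34.7 and 0.286 RPKM in tet-Myc livers. Hao2, a hydroxyacid oxidase, was listed at 0 in all 6 tet-YAP livers, against 0.0457, 17.9, 15.3 and 0.0617 RPKM in tet-Myc livers. In each gene tet-Myc libraries 2 and 3, the female-pattern ones, were far above libraries 1 and 4. Libraries 1 and 4 lay above all tet-YAP libraries, but the rule that named these genes required that the groups not overlap. For Hao2 the values of libraries 1 and 4 were also near the floor.

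The P450 genes Cyp3a44 and Cyp3a16 and the sulfotransferases Sult3a1 and Sult2a1 had the same order, with 17.7 to 32.9 RPKM in tet-Myc libraries 2 and 3, at most 0.578 RPKM in libraries 1 and 4, and at most 0.0738 RPKM in tet-YAP livers. The difference was -4.16 ± 1.12 for A1bg (adjusted p = 0.011), and -1.49 with the sex covariate. For Cyp2b9 it was -3.29 ± 0.90 (adjusted p = 0.012), and -1.31 (adjusted p = 0.052) with that covariate. Adjusted p-values were 0.020 for Cyp3a44, 0.038 for Sult3a1, 0.044 for Cyp3a16, 0.047 for Sult2a1 and 0.024 for Hao2, and of these 5 only Cyp3a44 kept its call with the covariate. These 5 genes and Cyp2b9 reached the filter only with libraries of other groups counted, so their p-values are no support for a difference. Nor is that of A1bg, which among tet-YAP, tet-Myc and WT libraries reached 1 RPKM only in tet-Myc ones. With close pairs averaged none of the 15 was called. The list had 2 lower calls among 9 genes tested without tet-Myc library 2 or 3, 11 to 12 of 15 without library 1 or 4, 5 without any one tet-YAP library, and 3 higher and 2 lower with the sex covariate (median -0.31). In male-pattern libraries 5 were tested, of which 3 were higher and none lower, and A1bg, Cyp2b9, Cyp3a44 and Hao2 were not among them.

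**Figure D4:**
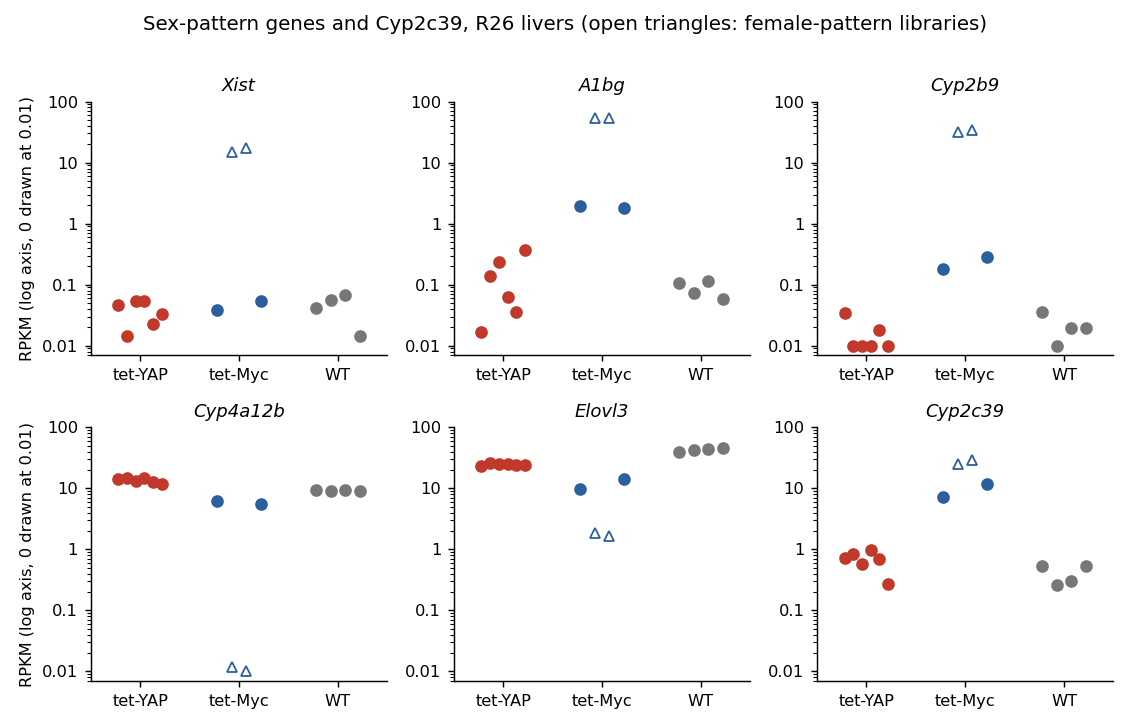
RPKM on a log axis (0 drawn at 0.01) of Xist, the female-biased genes A1bg and Cyp2b9, the male-biased genes Cyp4a12b and Elovl3, and Cyp2c39 in tet-YAP, tet-Myc and WT libraries from left to right; open triangles are the female-pattern tet-Myc libraries 2 and 3. The triangles are highest for Xist, A1bg, Cyp2b9 and Cyp2c39 and lowest for Cyp4a12b and Elovl3. For Cyp2c39 the male-pattern tet-Myc libraries also lie above all tet-YAP libraries, as the rule that named it required.

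Male-biased genes gave 2 higher and 1 lower of 19 (median 0.61), against 3.98% higher and 6.97% lower over all genes. In male-pattern libraries 2 were higher and 6 lower (median -0.43). Without tet-Myc library 1 the list had 7 higher calls, and without library 4 it had 6. Cyp4a12b, a male-specific fatty acid hydroxylase, was at 11.7 to 14.9 RPKM in tet-YAP livers (median 13.6), against 6.22, 0.0118, 0 and 5.55 RPKM in tet-Myc livers. Elovl3, an elongase, was at 23.0 to 25.7 RPKM in tet-YAP livers (median 24.5), against 9.95, 1.84, 1.66 and 14.3 RPKM in tet-Myc and 42.7 ± 2.9 RPKM in WT livers (SD, n = 4). Both were lower in the female-pattern libraries and also in the male-pattern tet-Myc libraries than in tet-YAP livers. The rule that named them among the 10 highest required this order. The differences of 2.97 ± 0.64 (adjusted p = 0.0027) and 2.24 ± 0.48 (adjusted p = 0.0027) became 1.14 and 1.01 in male-pattern libraries, where both were still called, and both calls ended with close pairs averaged (adjusted p = 0.059 and 0.056). Bcl6, a repressor of female-biased genes, was at 1.61 to 2.56 RPKM in tet-YAP livers (median 2.07), against 2.63, 6.75, 2.34 and 11.7 RPKM in tet-Myc and 7.59 ± 0.31 RPKM in WT livers. Its difference of -1.04 ± 0.31 (adjusted p = 0.020) was lost without tet-Myc library 2 or 4. The Y-linked genes Ddx3y (2.05, adjusted p = 0.11) and Eif2s3y (1.74, adjusted p = 0.15) were not called, and in male-pattern libraries they differed by -0.40 without a call and by -0.58 with one (adjusted p = 0.015). Without tet-Myc library 4 all 4 Y-linked genes, and without library 1 3 of them, were called higher.

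Bile acid genes gave 1 call each way among 19 (median -0.13), near the shares over all genes, 3.98% higher and 6.97% lower. The lower count was 4 without tet-Myc library 1 and 3 without tet-YAP library 4. Cyp7a1, the rate-limiting enzyme of bile acid synthesis, was at 1.79 to 10.3 RPKM in tet-YAP livers (median 5.57), against 24.5, 18.6, 34.2 and 32.2 RPKM in tet-Myc and 17.5 ± 5.1 RPKM in WT livers (SD, n = 4). No library overlapped, with a difference of -2.34 ± 0.65 (adjusted p = 0.012), and the call for Cyp7a1 ended with close pairs averaged (adjusted p = 0.075) and with the sex covariate (adjusted p = 0.091), and held in male-pattern libraries. Cyp8b1, which directs synthesis to cholic acid, was at 40.6 to 56.2 RPKM in tet-YAP livers (median 50.7), near the level at which values flattened, against 26.8, 32.8, 25.1 and 38.2 RPKM in tet-Myc livers (0.66 ± 0.12, adjusted p = 0.00083). WT livers, at 51.3 ± 3.0 RPKM, were like tet-YAP in level, and tet-Myc was called lower than WT (-0.75, adjusted p = 0.0022).

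Among zonal and amino acid genes, lower calls included the urea cycle enzymes Ass1, Cps1 and Otc. None of 16 pericentral genes was called (median -0.15), though 2 were lower without tet-YAP library 4 and 1 without tet-YAP library 1 or tet-Myc library 1 or 2, with -0.25 ± 0.18 (adjusted p = 0.30) for Cyp2e1 and -0.13 ± 0.12 (adjusted p = 0.42) for Cyp27a1, its most abundant members. Of 16 periportal genes 3 were lower and 1 higher (median -0.14), and of 21 genes of gluconeogenesis and amino acid catabolism 3 were lower and 1 higher (median -0.23), against 6.97% lower over all genes, with Ass1 and Cps1 in both lists. With one library left out, 2 to 3 periportal genes were lower, and 5 of the catabolic genes were lower without tet-YAP library 4 and 1 without tet-Myc library 3 or 4 or tet-YAP library 1, 3, 5 or 6. Ass1, which makes argininosuccinate in the urea cycle, was at 9.97 to 21.5 RPKM in tet-YAP livers (median 10.9), against 21.3, 24.3, 25.6 and 27.1 RPKM in tet-Myc livers. Tet-YAP library 4 was the single library to reach the tet-Myc range. The difference of Ass1 was -0.97 ± 0.23 (adjusted p = 0.0051), and its call held in every alternative in which it was tested. Cps1, the first enzyme of the urea cycle, was at 16.6 to 40.9 RPKM in tet-YAP livers (median 18.2), against 33.4, 33.5, 39.7 and 39.8 RPKM in tet-Myc livers, again with library 4 highest (-0.77 ± 0.26, adjusted p = 0.030). Otc, the next enzyme, had -0.52 ± 0.17 (adjusted p = 0.033), and Aldh1b1, a mitochondrial aldehyde dehydrogenase, -1.11 ± 0.28 (adjusted p = 0.0076). WT livers ranged widely, from 14.2 to 33.0 RPKM for Ass1, 19.5 to 52.7 RPKM for Cps1 and 19.9 to 33.1 RPKM for Otc. The highest Cps1 values were near the level at which values flattened. The calls for Cps1 and Otc ended in many alternatives, among them the sex covariate and several single libraries left out, and that for Aldh1b1 in male-pattern libraries (adjusted p = 0.054).

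Ppargc1a, a coactivator of gluconeogenesis and fasting genes, was higher in tet-YAP livers, at 2.57 to 3.05 RPKM (median 2.904), against 0.570, 1.27, 1.83 and 1.02 RPKM in tet-Myc and 0.786 ± 0.170 RPKM in WT livers (SD, n = 4). The tet-YAP values lay within a narrow range above all others, with a difference of 1.06 ± 0.17 (adjusted p = 0.00038). The enzymes Pck1 (0.15) and G6pc (0.03), which carry out gluconeogenesis, were not called. Among 11 genes that define hepatocytes 1 was lower (median -0.13), against 6.97% lower over all genes. This was Alb, at 20.1 to 53.1 RPKM in tet-YAP livers (median 22.5), against 46.2, 44.6, 49.2 and 49.3 RPKM in tet-Myc livers (-0.83 ± 0.29, adjusted p = 0.035). Tet-YAP library 4 was again the highest and lay at the level where values flattened, WT livers ranged from 25.4 to 69.4 RPKM, and the Alb call ended in 14 of 22 alternatives. Of 18 acute phase genes 1 was higher, against 3.98% higher over all genes. It was Socs3, the feedback inhibitor of cytokine signals (1.14 ± 0.30, adjusted p = 0.0084), with no overlap and its call lost with close pairs averaged (adjusted p = 0.053).

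Signal-driven genes were split. Of 20 interferon-stimulated genes 4 were higher and none lower (median 0.20), against 3.98% higher over all genes. Rsad2, the antiviral protein viperin, was at 2.27 to 5.08 RPKM in tet-YAP livers (median 4.30), against 1.52, 1.62, 1.33 and 0.635 RPKM in tet-Myc and 4.56 ± 0.66 RPKM in WT livers (SD, n = 4). Usp18, which removes Isg15 from proteins, was at 2.35 to 3.53 RPKM in tet-YAP livers (median 3.03), against 1.46, 2.05, 2.15 and 0.961 RPKM in tet-Myc and 5.99 ± 1.12 RPKM in WT livers. Tet-Myc was the lowest group in both, and the differences were 1.30 ± 0.22 (adjusted p = 0.00053) and 0.73 ± 0.16 (adjusted p = 0.0025). Oasl2, of the oligoadenylate synthetase family, differed by 0.54 ± 0.14 (adjusted p = 0.0089) and Isg15, the ubiquitin-like modifier, by 0.72 ± 0.22 (adjusted p = 0.019). Against WT, 10 members were called lower in tet-YAP and 9 in tet-Myc livers, where 4.19% and 2.7% of all genes were lower. These comparisons share the WT libraries. The count of 4 was 2 without tet-Myc library 4 or with close pairs averaged, and 10 with the sex covariate or in male-pattern libraries.

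Of 14 immediate early and AP-1 genes 3 were higher and none lower (median 0.28), against 3.98% higher over all genes. Fosl2, an AP-1 subunit, was at 3.02 to 5.27 RPKM in tet-YAP livers (median 3.81), against 1.63, 1.13, 1.28 and 0.869 RPKM in tet-Myc and 2.25 ± 0.29 RPKM in WT livers (SD, n = 4). It lay above WT in tet-YAP (0.69, adjusted p = 0.0055) and below WT in tet-Myc livers (-0.68, adjusted p = 0.015), and differed head to head by 1.37 ± 0.15 (adjusted p = 1.34e-05). Nr4a1, a nuclear receptor induced by many stimuli, differed by 0.86 ± 0.18 (adjusted p = 0.0027), and Btg2 was the third. Fos (0.29) and Jun (0.07) were not called. The count of 3 was 1 without tet-YAP library 6, where Nr4a1 was not tested.

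Clock genes were uneven within tet-Myc livers. Of 20 genes 4 were lower and 2 higher (median -0.23), against 6.97% lower and 3.98% higher over all genes. Cry1, a repressor of the clock, was at 0.907 to 1.54 RPKM in tet-YAP livers (median 0.948), against 2.28, 3.78, 5.71 and 2.02 RPKM in tet-Myc livers (-1.27 ± 0.21, adjusted p = 0.00046). The groups were separate in Cry1, and its difference was -0.79 in male-pattern libraries, still called. Wee1, a mitotic inhibitor under clock control, was at 0.454 to 0.812 RPKM in tet-YAP livers, against 3.65, 0.390, 4.86 and 5.50 RPKM in tet-Myc livers (-1.51 ± 0.42, adjusted p = 0.013). Ciart, a further repressor, was at 0.324 to 1.81 RPKM in tet-YAP livers, against 4.46, 0.246, 7.93 and 12.8 RPKM in tet-Myc livers (-1.88 ± 0.62, adjusted p = 0.030). In Wee1 and Ciart tet-Myc library 2 lay below every tet-YAP library and the other 3 far above. No tet-YAP or WT library reached 1 RPKM for Wee1, so its p-value is no support for a difference. Nr1d1, the repressor REV-ERB-alpha, differed by 0.87 ± 0.25 (adjusted p = 0.016). Relative to WT, the list's mean was -0.15 in tet-Myc library 2 and 0.55, 0.79 and 0.95 in the others. In male-pattern libraries 10 were lower and 3 higher (median -0.70). The lower count was 7 without tet-Myc library 2 and 2 without library 4. The higher count was 0 without tet-Myc library 1 or 3, 1 without library 4 and 1 without any one tet-YAP library.

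Markers of other liver cells showed no common shift. Over all genes, 3.98% were higher and 6.97% lower. Of 9 tested cholangiocyte and progenitor genes 3 were higher (median 0.47), with a summed level of 85.7 to 114 RPKM in tet-YAP, 70.7 to 84.5 RPKM in tet-Myc and 86.8 to 93.7 RPKM in WT livers. Besides Ly6d these included Sox9, which marks biliary and periportal progenitor cells, at 0.726 to 1.15 RPKM in tet-YAP livers (median 0.963), against 0.503, 0.636, 0.224 and 0.464 RPKM in tet-Myc livers. The Sox9 values did not overlap (0.61 ± 0.22, adjusted p = 0.040), and WT livers had 0.864 ± 0.244 RPKM (SD, n = 4). The defining duct genes Krt7 and Epcam were under the limit for testing, with means of 0.346 and 0.380 RPKM in tet-YAP and 0.186 and 0.247 RPKM in tet-Myc livers. The Sox9 call ended in 15 alternatives, and Sox9 did not reach the filter in tet-YAP and tet-Myc libraries alone. Counting those libraries alone, 6 of the 9 genes reached the filter and 2 were higher. In bulk tissue, more cells of a type and more RNA per cell cannot be told apart.

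Endothelial markers gave 2 higher and 1 lower of 18 (median -0.00), against 3.98% higher and 6.97% lower over all genes. Summed levels were 127 to 155 RPKM in tet-YAP, 123 to 152 RPKM in tet-Myc and 143 to 166 RPKM in WT livers. Lyve1, the hyaluronan receptor of sinusoidal and lymphatic endothelium, was at 10.4 to 12.6 RPKM in tet-YAP livers (median 11.5), against 2.66, 3.99, 2.86 and 2.14 RPKM in tet-Myc and 4.65 ± 0.79 RPKM in WT livers (SD, n = 4). The tet-YAP libraries stood clear of both other groups (1.84 ± 0.13, adjusted p = 2.37e-07), while Stab2 (-0.04) and Kdr (-0.09), which mark the same cells, were not called. Ehd3, a trafficking protein of sinusoids, differed by -0.57 ± 0.11 (adjusted p = 0.0017) and Vwf, a clotting factor of vessels, by 0.52 ± 0.16 (adjusted p = 0.017). The Ehd3 and Vwf calls ended in male-pattern libraries, among other alternatives.

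Macrophage and Kupffer markers gave 2 higher and 1 lower of 16 (median 0.05), against 3.98% higher and 6.97% lower over all genes. Msr1, a scavenger receptor, was at 3.63 to 4.91 RPKM in tet-YAP livers (median 4.24), against 7.79, 7.34, 6.82 and 5.68 RPKM in tet-Myc livers. It was lower in every tet-YAP library (-0.65 ± 0.09, adjusted p = 0.00017). The receptors Marco (1.09 ± 0.34, adjusted p = 0.024) and Cd163 (0.58 ± 0.19, adjusted p = 0.026) were higher with overlapping groups, and lost their calls without tet-Myc library 4, among others. The Kupffer gene Clec4f (-0.12) and the general marker Cd68 (0.08) were not called. Stellate and fibroblast markers gave 1 call each way of 17 (median -0.08), Col5a3, a minor collagen chain (1.22 ± 0.26, adjusted p = 0.0025), and Lrat, which stores retinol (-0.63 ± 0.21, adjusted p = 0.027), both with overlap and both lost with close pairs averaged. In male-pattern libraries the difference was 1.74 for Marco and 0.67 for Col5a3, and the call for Lrat ended. Of the tested neutrophil (5), lymphocyte (2) and erythroid (3) genes none was called. S100a8, a granule protein, had 3.67 to 12.2 RPKM in tet-YAP livers, against 10.47, 4.12, 1.66 and 0.965 RPKM in tet-Myc livers (0.87 ± 0.56, adjusted p = 0.24), and S100a9 0.75 ± 0.52 (adjusted p = 0.28). The other values were -0.10 for Ptprc (adjusted p = 0.70), 0.15 for Cd79b (adjusted p = 0.60), 0.87 for Alas2 (adjusted p = 0.080) and -0.22 for Hbb-b1 (adjusted p = 0.38).

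The same contrast was read in independent LAP-tTA livers after 4 weeks, where 743 of 12591 genes were called (5.9%), 561 higher (4.46%) and 182 lower (1.45%) in tet-YAP than in tet-Myc livers. Time, promoter, activator (tTA in place of rtTA) and table differ from the 2-day livers, and exposure to doxycycline may differ too. Values therefore stand side by side without a test between them. Of 1206 genes called at 2 days and tested in both systems 81.1% had the same sign, against 68.8% of all genes. Of the 432 genes called higher at 2 days and tested in LAP livers, 315 (72.9%) had the same sign there and 99 (22.9%) were called higher, against 37.1% and 3.53% of all genes, and 1 was called lower. Of 774 genes called lower, 663 (85.7%) had the same sign and 60 (7.75%) were called lower, against 62.9% and 1.59% of all genes, and 3 were called higher. The LAP count was 361 without tet-Myc library 1 and 411 to 494 without tet-YAP library 3 or 4 or tet-Myc library 2 or 3.

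Among targets of YAP and TEAD, 12 of 20 were higher and none lower in LAP livers (median 0.81), against 4.46% higher over all genes there. Ajuba had a difference of 2.06 (adjusted p = 1.08e-06), Tead1 1.62, Crim1 1.15, Cyr61 1.06, Ctgf 0.78 and Lats2 0.76, all called. Wwc1 (0.99), Wwc2 (0.79) and Vnn1 (1.25) were called higher too. Cyp2c39 (-2.69, adjusted p = 0.00019) and Cyp2b10 (-2.44, adjusted p = 0.0080) were called lower. Of the 27 PPAR-alpha targets, Vnn1 among them, 2 were higher and none lower in LAP livers, against 4.46% higher over all genes there. Their median was -0.29, against 0.21 at 2 days. None of the 18 genes of fatty acid synthesis or the 23 of cholesterol synthesis was called in LAP livers (medians -0.36 and -0.24), nor was any of the 15 female-biased genes (median -0.51). At 4 weeks 1 of 3 tet-Myc and 1 of 4 tet-YAP libraries had the female pattern. Ly6d (0.75, adjusted p = 0.59), Fgf21 (1.61, adjusted p = 0.15), Inhbb (-0.06), Lyve1 (-0.02) and Cidec (-0.70, adjusted p = 0.16) were not called. Myc itself was at 2.40 to 2.86 RPKM in LAP tet-YAP and 0.913 to 1.87 RPKM in LAP tet-Myc livers. The Myc groups did not overlap, without a call (0.84, adjusted p = 0.12), and these levels need not measure the transgene.

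**Figure D5:**
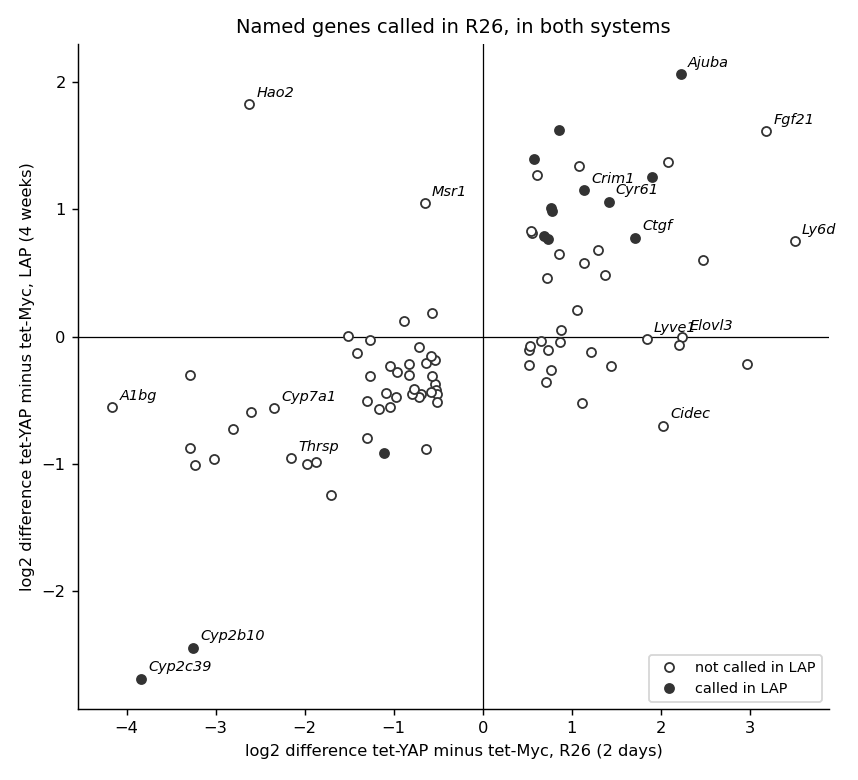
Log2 difference of tet-YAP minus tet-Myc at 2 days in R26-rtTA livers (x) and at 4 weeks in LAP-tTA livers (y) for the named genes called at 2 days; filled points were also called in LAP livers. Ajuba, Cyr61, Crim1 and Ctgf lie at upper right and Cyp2c39 and Cyp2b10 at lower left, while Lyve1 and Elovl3 lie on the 0 line of LAP and Msr1 and Hao2 above it.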

How the data were processed

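Liver RNA was sequenced by the authors from libraries made without the poly-T bead step, with no strand information. Per the labels and the study's methods, reads were aligned to mm9 with TopHat2 2.0.8 and counted with featureCounts 1.4.5-p1, and the authors deposited RPKM values per gene symbol for the R26 and the LAP system in separate tables. A further deposited table holds the authors' own comparisons (log2 fold changes, adjusted p-values and calls) and was not used. Columns name the group only, and libraries were numbered in column order. 27 symbols turned into dates were left out of 21671. Whole reads recovered from low values (100% of 3027 within 0.12 of a whole read) gave depths of 25210000 to 35430000 reads in tet-YAP, 31730000 to 35280000 in tet-Myc and 26990000 to 29900000 in WT livers.

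limma 3.58.1 (R 4.3.3) was fitted with a mean-variance trend to log2(RPKM + 0.5) of all 17 R26 libraries as group means, for 11263 genes at 1 RPKM or more in at least 3 libraries, with Benjamini-Hochberg adjustment, and to the 21 LAP libraries likewise. On simulated data, 94% of changes of 1 and 100% of changes of 2 on the log2 scale were recovered among 200 changed genes. The simulated libraries were independent, without close pairs or a sex pattern, so these figures do not give the power of the real comparison. Genes named with all values were Myc, Yap1, the 10 highest and 10 lowest called, non-overlapping genes with at least 1 RPKM in the higher group (no unnamed models, clones or small RNAs), and at most 4 called members of each list with the smallest adjusted p, or its 2 most abundant members where none was called. Ctgf, Tead1, Thrsp, Srebf1, Fasn, Acly, Cpt1a, Cyp4a14, Cyp4a10, Ciart, Xist and list members given by their difference alone were chosen after their values were seen. The members and the 32 lists were chosen with earlier results of these data known. Alternatives changed the pseudocount, filter, scaling, libraries, sex pattern covariate, close pairs and replicate block. Averaging close pairs with the sex covariate was chosen after seeing the data. Promoters came from RefSeq (GRCm38.p6). Some genes that met the naming rule are not reported here.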

Additional observations from a re-analysis of the deposited data

Results flagged for a closer look

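Yap1 and Msr1 had opposite signs in R26 and LAP livers, with every tet-YAP library on one side of every tet-Myc library in each, and the difference between systems was not tested. Yap1 differed by 0.52 in R26 and -0.22 in LAP livers, and Msr1 by -0.65 in R26 and 1.05 in LAP livers.

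In 211 groups of library values examined, 16 single libraries lay far from the rest of their group, where chance gives about 1 in 20. Tet-Myc library 1 was the high one in 5 genes, all in RPKM: Nip7 at 8.82 against 5.17 to 5.65, Nars at 21.9 against 16.3 to 17.2, Cdt1 at 1.547 against 0.494 to 0.651, Ccng1 at 16.4 against 13.2 to 13.5 and Crim1 at 2.57 against 2.05 to 2.12. Tet-YAP library 4 was the high one in 3 hepatocyte genes, with Ass1 at 21.5 against 9.97 to 12.9 RPKM, Cps1 at 40.9 against 16.6 to 23.0 RPKM and Alb at 53.1 against 20.1 to 28.7 RPKM. Tet-YAP library 3 was high for Nop2 at 7.975 against 5.72 to 6.51 RPKM and Cry1 at 1.535 against 0.907 to 1.03 RPKM. Tet-YAP library 2 was high for Isg15 at 4.325 against 3.20 to 3.58 RPKM. Other tet-Myc libraries stood apart for Gbp11 (library 3, 18.4 against 12.6 to 13.6 RPKM), Cyp2c55 (library 4, 3.80 against 0.891 to 1.27 RPKM) and Cpt1a (library 2, 14.8 against 20.9 to 21.9 RPKM). Sult3a1 at 0.0298 RPKM in tet-YAP library 2 and Sult2a1 at 0.0277 RPKM in tet-YAP library 3 stood apart only because the other tet-YAP libraries are listed at 0.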

How the results depend on the processing

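Of 106 named genes 90 were called, 35 of them in every alternative in which they were tested. Over 22 alternatives, 1973 of 2287 gene values kept direction and side of the threshold, 286 lost the call, 9 gained one and 19 changed sign. The count of higher genes was 275 with close pairs averaged and the sex covariate, 295 with close pairs averaged and 298 with a filter at 3 RPKM. The count of lower genes was 455 with median ratio scaling and 495 with quantile normalization. At a log2 difference of at least 1, 234 genes were called, 92 higher and 142 lower. Leaving out 1 library gave 1101 to 1361 called genes. In LAP livers 1431 genes were called, 963 higher and 468 lower, when only the 7 tet-YAP and tet-Myc libraries were fitted. Leaving out 1 LAP library gave 361 to 741 called genes, 313 to 465 higher and 43 to 283 lower. The causes were not tested.

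With the column number as a replicate block 1010 genes were called, 491 higher and 519 lower. Same-numbered libraries deviated with correlations of 0.062, -0.135, -0.097 and 0.015. The numbers follow column order alone, and so few correlations cannot decide whether the numbers pair the samples.

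Signs changed only in genes without a call, of which Eif2s3y was called lower in male-pattern libraries. With close pairs averaged and the sex covariate, male-pattern libraries only and the sex covariate alone, in this order, Myc had 0.26, 0.47 and 0.22, Ddx3y -0.28, -0.40 and -0.26, Eif2s3y -0.45, -0.58 and -0.44, and Ptprc 0.27, 0.26 and 0.26. Alas2 had -0.044 in male-pattern libraries and Xist 0.0033 with the sex covariate. Nars had 0.025 with median ratio scaling and 0.086 with quantile normalization, where Tars had 0.039. With 1 library left out Nars ranged from -0.12 to 0.015 and Cd79b from -0.059 to 0.30, the sign changing without tet-Myc library 1 in both. Depth limits genes under 1 RPKM, which were mostly not tested.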
